A study of Mus musculus with 12 samples.

Results

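Gene expression at 12 weeks was compared with that at 7 weeks after injection of α-synuclein fibrils, in 6 of the 12 libraries of the series, 3 at each time. Of 24346 genes in the deposited tables, the 17380 with enough counts were compared. The mice were C57BL/6 and had received preformed fibrils of G51D α-synuclein in the substantia nigra of both sides, 20 µg at 5 µg/µL. Libraries from mice given saline by the same route, 3 at 7 weeks and 3 at 12 weeks, served as the background for what time alone does. Cells carrying hKO1, an orange fluorescent protein by which the labels identify dopaminergic neurons, were taken from dissected midbrain of all 4 groups by flow sorting, and their RNA was amplified for sequencing. The labels call the sorted material neural cells. The sources used here do not give what drives hKO1, the age of the mice, or whether a library holds 1 animal or several. The p-values therefore measure the spread between these samples, which may be technical. The time since the fibrils were given and any other difference between the 7 and 12 week collections, such as age, cannot be told apart within the 6 libraries.

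Dopaminergic neurons of the substantia nigra make dopamine from tyrosine through tyrosine hydroxylase (Th) and DOPA decarboxylase (Ddc), load it into vesicles with the transporter VMAT2 (Slc18a2) and take it back up with the dopamine transporter (Slc6a3). They are the cells lost in Parkinson's disease, in which α-synuclein, a presynaptic protein, aggregates, and injected preformed fibrils seed aggregation of the host's own protein over weeks. Midbrain tissue also holds oligodendrocytes, which wrap axons in myelin, astrocytes, microglia and the cells of blood vessels.

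Genes of several of these cell types were abundant in every library. On the length-corrected FPKM scale, Mbp, the main basic protein of myelin, stood at 2043, 1893 and 2719.6 FPKM at 7 weeks and 4632, 5159 and 3377 FPKM at 12 weeks in replicates 1, 2 and 3. Th stood at 528, 312 and 145 FPKM at 7 weeks and 107, 167 and 109 FPKM at 12 weeks, and the capillary tight junction gene Cldn5 at 1005, 1115 and 999.9 FPKM at 7 weeks and 1199.5, 1519 and 1116 FPKM at 12 weeks. Mbp and Cldn5 thus lay above Th in all 6 libraries of cells sorted for the dopaminergic reporter. The microglial gene Tmem119 stood at 0.289, 5.72 and 4.86 CPM at 7 weeks and 0, 0 and 4.53 CPM at 12 weeks, at 0 in 2 libraries and under 6 CPM in the other 4. In RNA from pooled cells, fewer cells of a type and less RNA per cell cannot be told apart.

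The 6 libraries held 2506733 to 5022483 assigned fragments, and log2 CPM (counts scaled to the library total and by trimmed mean of M-values) correlated between replicates at 0.898 to 0.912 at 7 weeks and at 0.788 to 0.859 at 12 weeks. Replicate 2 at 12 weeks stood apart: it had a fragment for 17409 genes, against 19960 to 20910 in the other 5, and 1749 of the tested genes were at 0 in it, against 78 to 422. Replicate 1 at 12 weeks stood apart on the next principal component and held heat shock and ependymal RNA. Replicate 1 at 7 weeks was the highest of the 6 for 13 of 16 pan-neuronal and 29 of 34 synaptic vesicle genes. Replicate 3 at 7 weeks held smooth muscle RNA, with a summed level of 1551 CPM for 20 pericyte and smooth muscle genes against 255 to 632 CPM in the other 5.

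No gene passed an adjusted p of 0.05 in edgeR's quasi-likelihood test with Benjamini-Hochberg adjustment, 0% of the genes tested, and the smallest adjusted p was 0.389. At an unadjusted p under 0.05 stood 1318 genes (7.58%), 575 of them higher at 12 weeks (3.31%) and 743 lower (4.28%). limma-voom also called 0 genes, and DESeq2 called 44 of the 17363 genes to which it gave an adjusted p (0.253%), 19 higher (0.109%) and 25 lower (0.144%). The 3 libraries at 12 weeks all lay above the 3 at 7 weeks for 892 genes (5.13%) and all below for 1240 (7.13%). A range that does not overlap is used below as a description of single genes. The differences are given as log2(12 weeks) minus log2(7 weeks) with the standard error from the edgeR fit, which was 0.53 for the median gene and 0.26 for the median gene above 100 CPM.

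Which direction prevailed depended on the level of the gene. Among the 2144 tested genes above 100 CPM, 282 were higher without overlap and 52 lower, and the median log2 difference was 0.08. Among the 3652 genes at 5 CPM or less, 44 were higher without overlap and 404 lower, with a median of -0.35. Of the 1240 genes lower without overlap, 691 had their lowest value of the 12 week group in replicate 2, the library with the fewest genes detected. The part of that library in the low-level genes was not tested. The median over all genes was -0.06, and 45.8% of genes had a positive difference.

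**Figure D1:**
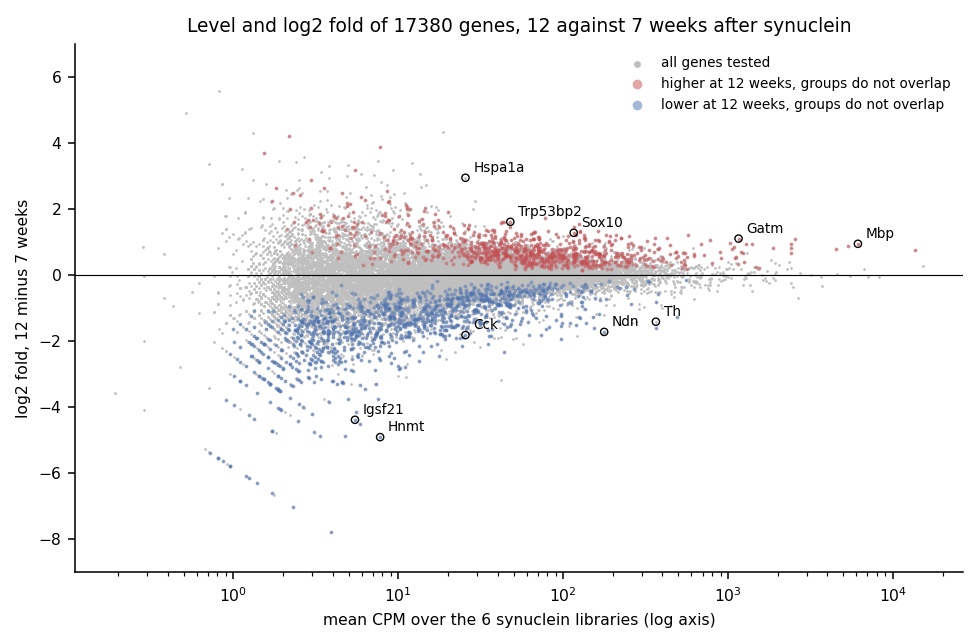
Log2 difference between 12 and 7 weeks (vertical axis) against mean CPM over the 6 synuclein libraries (horizontal log axis), 1 point per gene tested; red and blue points are genes whose 3 libraries at 12 weeks lie all above or all below the 3 at 7 weeks. Blue points prevail at 5 CPM or less, 404 against 44, and red points above 100 CPM, 282 against 52.

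Of the 44 gene lists examined, the myelin list had the most members higher at 12 weeks without overlap. All 27 genes of a list of myelin structure and oligodendrocyte products had a positive difference (45.8% of all genes did), with a median of 0.77 on the log2 scale against -0.06 over all genes. Of these, 21 had an unadjusted p under 0.05, against a background of 3.31% in that direction, and 22 did not overlap, against 5.13%. No member passed edgeR's adjusted p, and 4 passed that of DESeq2 (Mbp, Mobp, Plekhb1 and Cntn2). Their summed level was 29095, 24557 and 30126 CPM at 7 weeks and 58502, 48196 and 38799 CPM at 12 weeks, so that the lowest library at 12 weeks lay above the highest at 7 weeks.

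Mbp stood at 3892, 3559 and 5106 CPM at 7 weeks and 8635, 9294 and 6307 CPM at 12 weeks. Each library at 12 weeks lay above each at 7 weeks, with a log2 difference of 0.95 ± 0.23 and a DESeq2 adjusted p of 0.0206. Mobp, an abundant myelin protein, stood at 727, 793 and 779 CPM at 7 weeks and 1585, 1456 and 1136 CPM at 12 weeks, a difference of 0.86 ± 0.23. Replicate 3 was the lowest of the 12 week libraries for both genes. Mag and Mog, adhesion and surface proteins on the inner and outer faces of the sheath, had smaller differences of 0.53 ± 0.30 and 0.54 ± 0.31, both without overlap. Cnp, an enzyme of uncompacted myelin, had a difference of 0.68 ± 0.28, and Cldn11, its tight junction protein, one of 0.87 ± 0.28.

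Other members had larger differences. Gal3st1, which makes the myelin lipid sulfatide, stood at 56.1, 39.8 and 42.3 CPM at 7 weeks and 107, 176 and 67.7 CPM at 12 weeks, a log2 difference of 1.34 ± 0.37. Cntn2, a cell adhesion protein of the region beside the node of Ranvier, stood at 134, 125 and 167 CPM at 7 weeks and 318, 356 and 252 CPM at 12 weeks (1.12 ± 0.28). Ermn, a cytoskeletal protein of mature oligodendrocytes, stood at 313, 235 and 256 CPM at 7 weeks and 831, 517 and 407 CPM at 12 weeks (1.13 ± 0.30). None of the 3 overlapped between the times. Cryab, a small heat shock protein that oligodendrocytes also make, stood at 303, 387 and 345 CPM at 7 weeks and 1142, 852 and 389.9 CPM at 12 weeks, a difference of 1.20 ± 0.39 with 12 week replicate 3 close to the 7 week libraries; its gene shares its locus with another model in the table, so its counts are uncertain.

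Transcription factors of the oligodendrocyte lineage were higher as well, for 13 of 16 tested (background 45.8%), with a median of 0.64 and 7 without overlap (background 5.13%). Their summed level overlapped, at 3759, 3462 and 4769 CPM at 7 weeks and 4614, 3776 and 3616 CPM at 12 weeks, most of it the zinc finger gene Zfp488, which had a log2 difference of -0.34 ± 0.27. Sox10, which drives the lineage, stood at 66.5, 41.5 and 94.6 CPM at 7 weeks and 175, 194 and 124 CPM at 12 weeks, a log2 difference of 1.28 ± 0.35. Myrf, which turns on the myelin genes and is needed to keep them on, stood at 38.8, 34.3 and 42.3 CPM at 7 weeks and 116, 89.7 and 71.4 CPM at 12 weeks, a difference of 1.26 ± 0.31 with a DESeq2 adjusted p of 0.0407. Zfp536, a zinc finger repressor, had a difference of 1.09 ± 0.31 and Olig1, a basic helix-loop-helix factor, one of 0.52 ± 0.26. All 4 lay higher in each library at 12 weeks than in any at 7 weeks. Precursor and newly formed oligodendrocyte genes did not share this as a list: 5 of 17 were higher, 0 of them without overlap, and the median was -0.15. The largest positive difference was 1.02 for Bcas1. At an unadjusted p under 0.05, 1 member was higher (background 3.31%) and 0 lower. The precursor receptor Pdgfra stood at 12.7, 10.9 and 16.6 CPM at 7 weeks and 6.21, 16.7 and 7.08 CPM at 12 weeks, overlapping.

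The myelin list kept 27 of 27 positive differences when any 1 of the 6 libraries was left out, with medians from 0.63 to 0.90. With 12 week replicate 1 or 7 week replicate 2 left out, 12 members had an unadjusted p under 0.05, in place of 21. With both 12 week libraries that stand apart left out, which leaves only replicate 3, the median was 0.51 and 1 member had an unadjusted p under 0.05; there the lone library was assumed to vary like the other groups. Saline gave the same direction: the median over the list was 1.03, and Mbp differed by 1.24 ± 0.24 between the saline times. The difference between treatments in Mbp was -0.29 ± 0.33 (edgeR adjusted p = 0.952 or more for every gene tested, so that no gene's time difference was shown to differ between treatments).

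**Figure D2:**
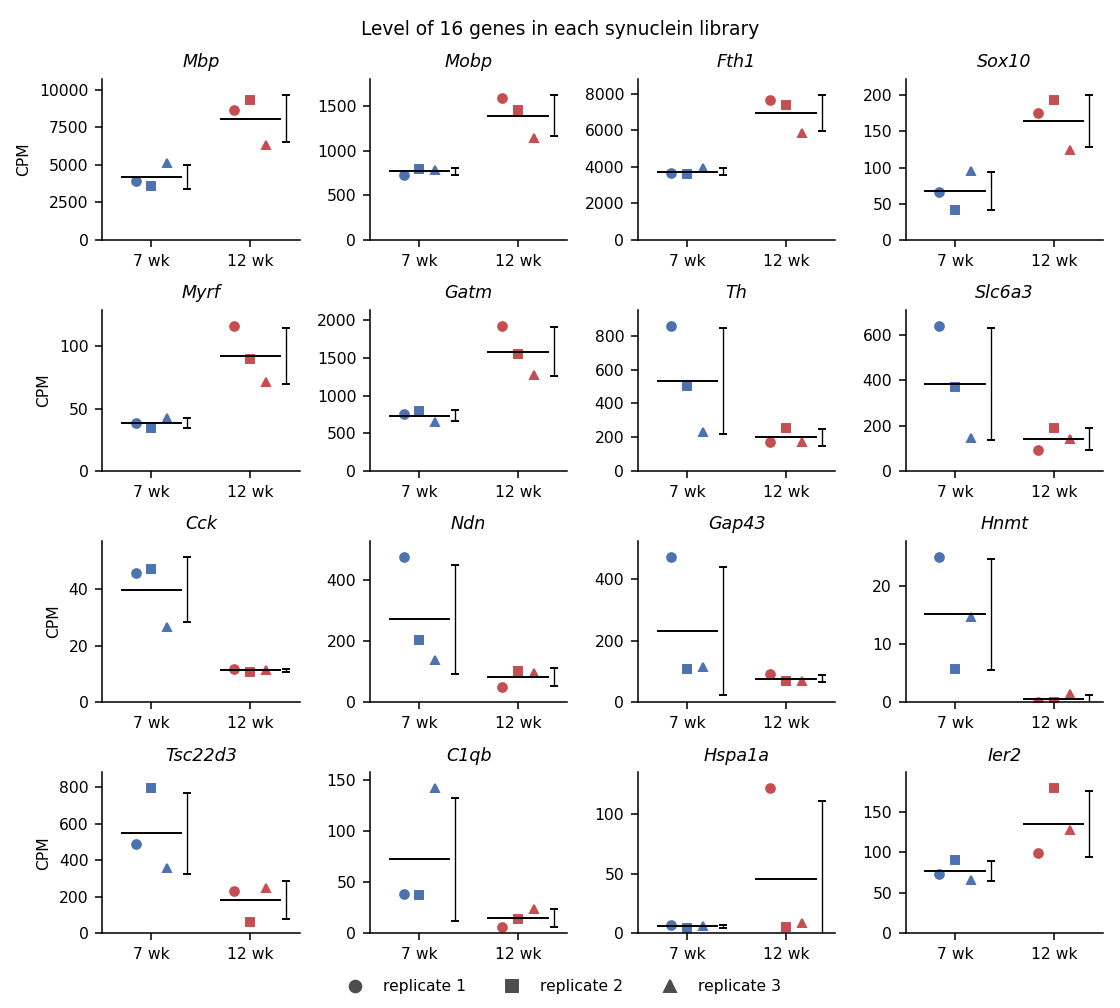
CPM of 16 genes (vertical axes, from 0) in the 3 libraries at 7 weeks (blue) and the 3 at 12 weeks (red) after synuclein; circles, squares and triangles are replicates 1, 2 and 3, lines are means and bars 1 SD. Mbp, Mobp, Fth1, Sox10, Myrf and Gatm do not overlap between the times, Th and Slc6a3 do, and Hspa1a stands out in 12 week replicate 1 alone.

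Among single genes, the 15 higher genes with the smallest p were named by rule, from those without overlap and with a mean of at least 5 CPM. They are Trp53bp2, Trim59, Gatm, Pls1, Plekhb1, Sez6l2, Myrf, Dbi, Mbp, Cntn2, Frmd5, Nkain1, Fth1, Grm3 and Ncam2. Each had an edgeR adjusted p of 0.389, and 13 of the 15 had a DESeq2 adjusted p under 0.05, the exceptions being Grm3 and Ncam2. Replicate 1 was the highest of the 12 week libraries for 10 of them and replicate 3 for 0.

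Trp53bp2, which encodes the p53-binding protein ASPP2, stood at 25.2, 14.02 and 31.4 CPM at 7 weeks and 74.2, 88.9 and 53.3 CPM at 12 weeks, a log2 difference of 1.61 ± 0.34 (DESeq2 adjusted p = 0.012). Trim59, a membrane-bound ubiquitin ligase, stood at 76.4, 30.9 and 84.9 CPM at 7 weeks and 248, 171 and 142 CPM at 12 weeks, a difference of 1.55 ± 0.35. Gatm, the first enzyme of creatine synthesis (chr2:122594473-122611277 in the deposited coordinates, whose build no source used here names), stood at 758, 789.9 and 656 CPM at 7 weeks and 1919, 1549 and 1275 CPM at 12 weeks, a difference of 1.11 ± 0.25 with a DESeq2 adjusted p of 0.012. In these 3 the lowest library at 12 weeks lay well above the highest at 7 weeks. Pls1, an actin-bundling protein, stood at 61.6, 50.9 and 73.4 CPM at 7 weeks and 212, 169 and 126 CPM at 12 weeks (1.45 ± 0.34). Fth1, the ferritin heavy chain that stores iron, stood at 3655, 3631 and 3945 CPM at 7 weeks and 7655, 7374 and 5836 CPM at 12 weeks (0.89 ± 0.23); processed copies of this gene exist in the genome and could share its reads. Dbi, which binds acyl-CoA esters and modulates GABA receptors, stood at 215, 189 and 283 CPM at 7 weeks and 739.9, 434 and 313 CPM at 12 weeks (1.12 ± 0.28), with replicate 3 at 12 weeks close above the 7 week libraries.

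Grm3, a metabotropic glutamate receptor, stood at 75.8, 63.8 and 79.99 CPM at 7 weeks and 259, 135 and 144 CPM at 12 weeks, a log2 difference of 1.29 ± 0.34. Ncam2, a neural adhesion molecule, differed by 1.36 ± 0.36, and Sez6l2, a neuronal surface protein, by 1.33 ± 0.32. Plekhb1, a pleckstrin-homology protein found in myelinating cells and photoreceptors, differed by 1.07 ± 0.25, Nkain1, which interacts with the sodium pump, by 1.57 ± 0.40, and Frmd5 by 1.29 ± 0.33. After saline the same 15 genes all had a positive difference, as 51% of all genes did, and 13 of them did not overlap between the saline times; 8.34% of all genes were higher without overlap after saline. None of the 15 had an unadjusted p under 0.05 for the difference between treatments, against 4.49% of all genes. The 15 were chosen by their synuclein difference, which enters the difference between treatments, so this share is not a like-for-like background.

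Of 5 further genes, chosen after their values were seen, Trf belongs to the myelin and iron lists, Enpp2 to the choroid plexus list, Ptgds to the fibroblast list and Tubb4a and Stmn4 to the axonal cytoskeleton list. Trf, the iron carrier transferrin, stood at 3364, 2762 and 3807 CPM at 7 weeks and 7201, 5329.8 and 4789 CPM at 12 weeks, a log2 difference of 0.80 ± 0.30, and the summed level of 17 iron genes was 9787, 9929 and 11134 CPM at 7 weeks and 17731, 16607 and 14794 CPM at 12 weeks, without overlap, with Trf and Fth1 the only 2 members that did not overlap. Enpp2, which makes lysophosphatidic acid, stood at 945, 799 and 917 CPM at 7 weeks and 2018, 1859.9 and 1224 CPM at 12 weeks (0.94 ± 0.28). Ptgds, a prostaglandin D synthase abundant in the brain's coverings and oligodendrocytes, stood at 1399, 1408 and 2094 CPM at 7 weeks and 5034, 2893 and 2548 CPM at 12 weeks (1.10 ± 0.33). Tubb4a, the tubulin of myelinating cells, differed by 0.82 ± 0.27 and Stmn4, a tubulin-binding protein, by 1.08 ± 0.35. All 5 lay higher at 12 weeks without overlap.

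Pan-neuronal and synaptic genes were mostly lower at 12 weeks, while lists of axonal transport and proton pump genes had medians nearer 0. Of 16 pan-neuronal genes, 14 had a negative difference (54.2% of all genes did), 10 had an unadjusted p under 0.05 (background 4.28%), and 5 were lower without overlap (background 7.13%), with a median of -0.95. Nefm, a neurofilament whose locus another model shares, was the 1 member higher without overlap, at 5.78, 7.44 and 9.999 CPM at 7 weeks and 10.4, 17.6 and 11.3 CPM at 12 weeks. The summed level was 3379.9, 1404 and 1223 CPM at 7 weeks and 846, 1026 and 1049 CPM at 12 weeks, without overlap but with 7 week replicate 1 more than 2 times above every other library. Without that replicate the median was -0.41, 13 of the 16 were negative and 1 had an unadjusted p under 0.05. Over 29 genes of axonal transport and cytoskeleton 18 were lower, with a median of -0.17 and 3 without overlap in each direction. At an unadjusted p under 0.05, 8 of the 29 were lower (background 4.28%) and 3 higher (background 3.31%). Without 7 week replicate 1, 5 of the 29 had such a p in either direction and the median was -0.006. Over 17 subunits of the vacuolar proton pump 9 were lower, with a median of -0.13.

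Gap43, a growth cone protein, stood at 470.0, 109 and 115 CPM at 7 weeks and 89.99, 69.9 and 69.4 CPM at 12 weeks, a log2 difference of -1.60 ± 0.46, which was -0.53 without 7 week replicate 1. Stmn2, a microtubule regulator of axons, stood at 373, 151 and 159.7 CPM at 7 weeks and 83.2, 95.98 and 124 CPM at 12 weeks (-1.17 ± 0.31). Syt1, the calcium sensor of vesicle release, stood at 273, 128 and 125 CPM at 7 weeks and 51.9, 82.5 and 85.9 CPM at 12 weeks (-1.26 ± 0.38); Gap43 and Syt1 share their loci with other models, so their counts are uncertain. These 3 did not overlap between the times. Snap25, a SNARE of the same release machinery, overlapped by 1 library, at 861, 423 and 309 CPM at 7 weeks and 222, 312 and 271 CPM at 12 weeks (-0.98 ± 0.32). Without 7 week replicate 1, Stmn2 differed by -0.60, Syt1 by -0.76 and Snap25 by -0.42.

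Of 34 genes of synaptic vesicles and SNAREs, 32 were lower (background 54.2%), 10 at an unadjusted p under 0.05 (background 4.28%) and 8 without overlap (background 7.13%), with a median of -0.71. Rab3c, a vesicle GTPase, stood at 201, 89.3 and 78.3 CPM at 7 weeks and 34.1, 32.1 and 58.4 CPM at 12 weeks, a log2 difference of -1.57 ± 0.39. Napb, a cofactor that recycles SNAREs, stood at 169, 128 and 58.9 CPM at 7 weeks and 23.7, 40.04 and 52.1 CPM at 12 weeks, a difference of -1.62 ± 0.38 with a DESeq2 adjusted p of 0.0401. Sncg, γ-synuclein, stood at 152, 48.9 and 40.3 CPM at 7 weeks and 26.8, 38.1 and 26.9 CPM at 12 weeks (-1.39 ± 0.47). In these 3, no library at 12 weeks reached the level of any at 7 weeks. Without 7 week replicate 1, Rab3c differed by -0.99 and Sncg by -0.52, and the vesicle median was -0.24, with 24 of 34 lower and 3 at an unadjusted p under 0.05.

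Neurotransmitter receptor genes were lower for 18 of 22 (background 54.2%), with a median of -0.70 and 4 without overlap (background 7.13%). Gabrb1, a subunit of the GABA-A receptor, stood at 41.1, 12.9 and 14.9 CPM at 7 weeks and 0.846, 2.74 and 7.65 CPM at 12 weeks, a log2 difference of -2.60 ± 0.70 with a DESeq2 adjusted p of 0.0407. Grm5, a metabotropic glutamate receptor, stood at 22.3, 21.5 and 32.3 CPM at 7 weeks and 5.64, 5.76 and 11.6 CPM at 12 weeks (-1.72 ± 0.48), with 12 week replicate 3 the highest of its group. After saline Grm5 differed by 0.75 ± 0.46, and the difference between treatments was -2.47 ± 0.66. Gria2, a subunit of AMPA receptors, differed by -1.25 ± 0.53, also without overlap, and by -0.75 without 7 week replicate 1. With each of the 6 libraries left out in turn the median of the 22 ranged from -0.85 to -0.46, the latter without 7 week replicate 1.

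Genes that make, store and take up dopamine were mostly lower at 12 weeks, but the levels of Th, Slc6a3 and Slc18a2 at 7 weeks differed among replicates by more than 3 times. Th (chr7:142892776-142899966) stood at 858, 502 and 233 CPM at 7 weeks and 169, 256 and 173 CPM at 12 weeks, a log2 difference of -1.41 ± 0.39. Slc6a3, the dopamine transporter, stood at 638, 370.3 and 145 CPM at 7 weeks and 91.7, 189 and 141 CPM at 12 weeks, a difference of -1.45 ± 0.43. In both, 7 week replicate 3 lay below 12 week replicate 2, so the groups overlapped. Slc18a2, the vesicle transporter, stood at 239, 124 and 70.6 CPM at 7 weeks and 38.6, 57.3 and 52.7 CPM at 12 weeks, without overlap, a difference of -1.54 ± 0.47. Drd2, the dopamine receptor that dopaminergic neurons also carry, stood at 26.3, 27.5 and 4.86 CPM at 7 weeks and 4.51, 2.19 and 4.25 CPM at 12 weeks, a difference of -2.41 ± 0.75; 7 week replicate 3 lay just above the 12 week libraries.

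Ddc, which makes dopamine from DOPA, stood at 312, 202 and 91.1 CPM at 7 weeks and 176, 129 and 122 CPM at 12 weeks, overlapping, a log2 difference of -0.50 ± 0.35, and it shares its locus with another model. Gch1, the first enzyme of the cofactor tetrahydrobiopterin, stood at 185, 157 and 93.1 CPM at 7 weeks and 67.98, 146 and 104 CPM at 12 weeks (-0.45 ± 0.31), also overlapping. The later cofactor enzymes went the other way: Spr stood at 57.6, 51.8 and 37.1 CPM at 7 weeks and 60.1, 79.3 and 92.9 CPM at 12 weeks, higher without overlap (0.66 ± 0.27). Qdpr, which regenerates the cofactor, stood at 1098, 805 and 1113 CPM at 7 weeks and 2215, 1513 and 1101 CPM at 12 weeks, overlapping (0.68 ± 0.30, and 0.44 without 12 week replicate 1). Over the 13 genes of dopamine synthesis and handling, 9 were lower and 4 higher, with a median of -0.45. Without 7 week replicate 1 the median was -0.02, and Th differed by -0.85, Slc6a3 by -0.84, Slc18a2 by -0.94 and Ddc by -0.020. After saline, Th differed by -1.16 ± 0.39 and Slc6a3 by -1.07 ± 0.42, both lower without overlap, and the differences between treatments were -0.25 ± 0.54 and -0.38 ± 0.59.

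Genes of dopaminergic identity, the transcription factors and surface proteins by which these neurons are recognised, were lower for 17 of 23 (54.2% of all genes were), with a median of -0.51, 5 at an unadjusted p under 0.05 (background 4.28%) and 1 without overlap, a share below the 7.13% of all genes. Without 7 week replicate 1 the median was -0.16, with 13 of 23 lower and 2 at an unadjusted p under 0.05. The gene without overlap was Cck (chr9:121489824-121495694), the neuropeptide cholecystokinin that many midbrain dopaminergic neurons release, at 45.7, 47.2 and 26.6 CPM at 7 weeks and 11.8, 10.7 and 11.3 CPM at 12 weeks. The 3 libraries at 12 weeks were nearly equal and lay below the lowest at 7 weeks by more than 2 times, with a log2 difference of -1.82 ± 0.38 and a DESeq2 adjusted p of 0.0092. Leaving out any 1 library moved the Cck difference between -2.003 and -1.648. Chrna6, a nicotinic receptor subunit of dopaminergic terminals, stood at 102, 66.7 and 21.4 CPM at 7 weeks and 26.8, 12.9 and 11.6 CPM at 12 weeks (-1.89 ± 0.51). Slc10a4, a vesicle protein of monoamine neurons, stood at 156, 68.97 and 21.1 CPM at 7 weeks and 14.95, 17.003 and 34.005 CPM at 12 weeks (-1.90 ± 0.55). Nr4a2, the transcription factor NURR1, stood at 82.1, 41.5 and 33.7 CPM at 7 weeks and 13.5, 19.7 and 35.99 CPM at 12 weeks (-1.18 ± 0.45). These 3 overlapped between the times, each with 7 week replicate 1 highest. Without that library Slc10a4 differed by -1.01 and Nr4a2 by -0.68.

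Markers of other neurons were uneven between replicates. Tph2, which makes serotonin, stood at 504, 58.4 and 8.29 CPM at 7 weeks and 6.49, 152 and 0.567 CPM at 12 weeks. The serotonin transporter Slc6a4 stood at 189, 32.6 and 5.14 CPM at 7 weeks and 2.54, 20.02 and 2.55 CPM at 12 weeks. The high values were those of 7 week replicate 1, with 12 week replicate 2 next for Tph2, and the log2 difference of Tph2 was -1.84 with all libraries and 0.72 without 7 week replicate 1. Gad1, which makes GABA, stood at 29.5, 25.2 and 10.9 CPM at 7 weeks and 7.05, 0.823 and 6.80 CPM at 12 weeks, lower without overlap (-2.15 ± 0.90), and it shares its locus with another model.

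**Figure D3:**
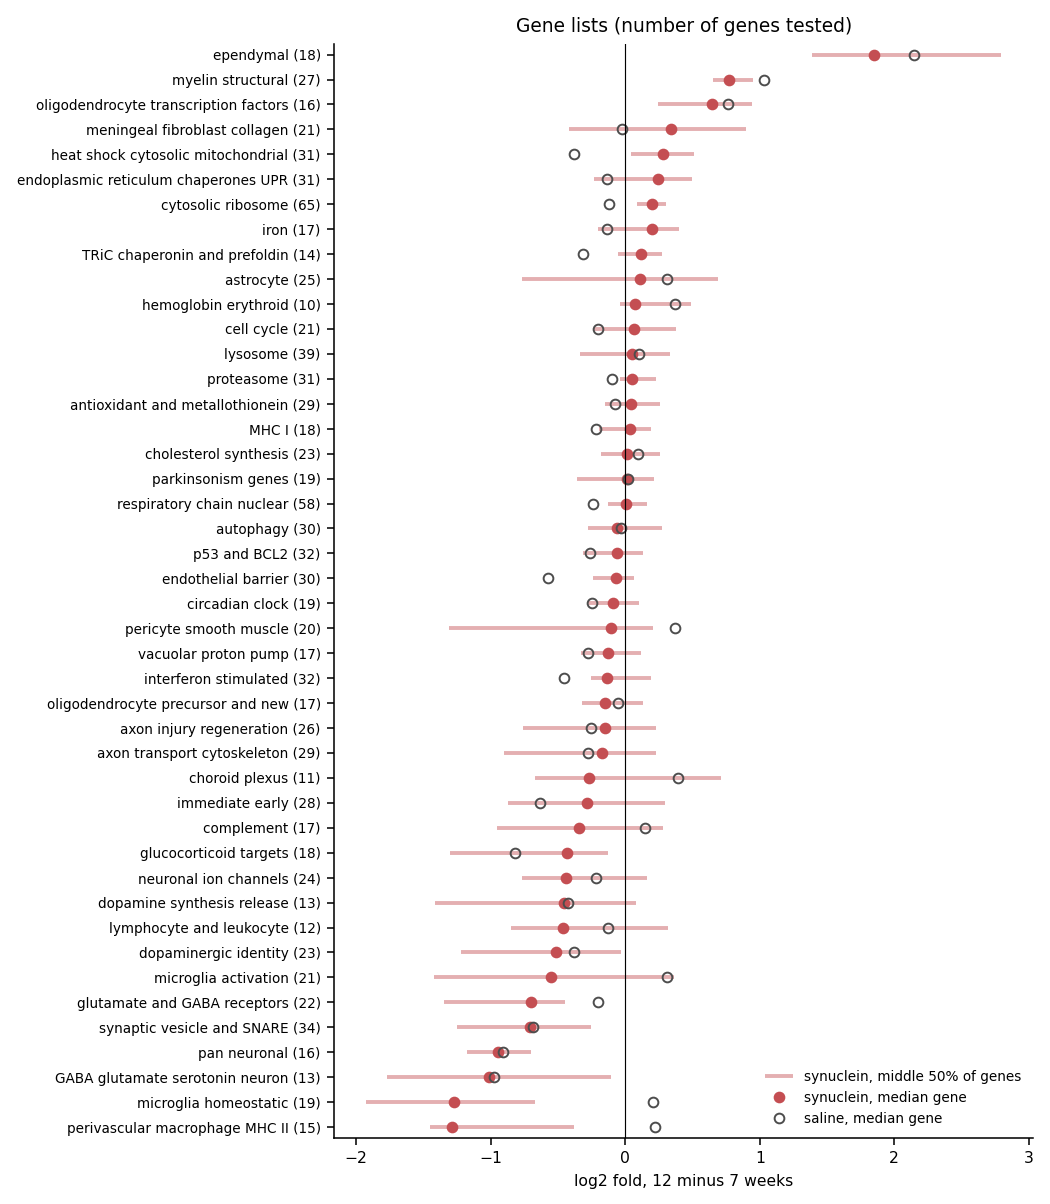
Median log2 difference between 12 and 7 weeks for 44 gene lists (rows, number of genes tested in brackets) after synuclein (filled red) and after saline (open grey), with bars over the middle 50% of the genes after synuclein. The myelin medians are 0.77 and 1.03 and the pan-neuronal medians -0.95 and -0.91, while heat shock stands at 0.28 after synuclein and -0.38 after saline, and homeostatic microglia at -1.27 and 0.21.

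By the same rule the 15 lower genes with the smallest p were Hnmt, Gprasp2, Cck, Ndn, Zcchc12, Sult1a1, Napb, Gpm6a, Atp13a2, Nrsn1, Zfp850, Rprm, Nanos1, Snx16 and Igsf21. Each had an edgeR adjusted p of 0.389, and 14 of the 15 had a DESeq2 adjusted p under 0.05, the exception being Atp13a2. For 11 of them the highest 7 week library was replicate 1, and for the other 4 it was replicate 2.

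Ndn, the imprinted gene of necdin, which neurons express on leaving the cell cycle, stood at 474, 203 and 138 CPM at 7 weeks and 50.8, 103 and 94.1 CPM at 12 weeks, a log2 difference of -1.72 ± 0.38 that was -1.02 without 7 week replicate 1, when Zcchc12 and Nrsn1 differed by -1.11 and -0.95. Zcchc12, a transcriptional co-activator of brain, stood at 169, 75.8 and 45.997 CPM at 7 weeks and 21.7, 35.4 and 26.1 CPM at 12 weeks (-1.80 ± 0.41). Nrsn1, the vesicle membrane protein neurensin, stood at 289, 137 and 109 CPM at 7 weeks and 49.9, 74.3 and 63.5 CPM at 12 weeks (-1.51 ± 0.37). Gpm6a, a neuronal membrane glycoprotein, stood at 129, 50.7 and 88.6 CPM at 7 weeks and 27.4, 29.6 and 42.8 CPM at 12 weeks (-1.43 ± 0.34). In all 4 the 3 libraries at 12 weeks lay within a narrower range than those at 7 weeks and below them. Gprasp2, which sorts receptors towards lysosomes, stood at 93.1, 71.3 and 68.3 CPM at 7 weeks and 12.4, 35.4 and 25.5 CPM at 12 weeks (-1.66 ± 0.35).

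Atp13a2, a lysosomal polyamine transporter whose loss causes a form of parkinsonism, stood at 127, 97.3 and 67.1 CPM at 7 weeks and 43.7, 38.4 and 37.4 CPM at 12 weeks, a log2 difference of -1.28 ± 0.31. The 12 week libraries lay within 7 CPM of each other and below the lowest at 7 weeks. Its DESeq2 adjusted p was 0.0517, short of the threshold. Over 19 genes of inherited parkinsonism, 10 were higher and 9 lower, with a median of 0.01. Snx16, a sorting protein of endosomes, stood at 31.2, 44.6 and 35.1 CPM at 7 weeks and 16.4, 8.50 and 13.3 CPM at 12 weeks (-1.54 ± 0.38).

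Hnmt, which breaks down histamine, stood at 24.9, 5.72 and 14.6 CPM at 7 weeks and 0, 0 and 1.42 CPM at 12 weeks (chr2:24002913-24049379). It was at 0 in 2 of the 3 libraries at 12 weeks and above 5 CPM in each at 7 weeks, and it had the smallest DESeq2 adjusted p of all genes, 0.00178. The fitted log2 difference of -4.90 depends on how counts of 0 are treated and moved between -8.72 and -2.95 over the alternatives. Rprm, an inhibitor of cell cycle progression, stood at 17.1, 2.86 and 13.999 CPM at 7 weeks and 0, 1.37 and 0 CPM at 12 weeks. Igsf21, an inhibitory synapse protein, stood at 18.5, 5.44 and 7.43 CPM at 7 weeks and 0.564, 0 and 0.85 CPM at 12 weeks. Rassf6, a Ras-association domain protein outside the naming rule and chosen after its values were seen, stood at 6.36, 3.43 and 13.7 CPM at 7 weeks and 0, 0 and 0 CPM at 12 weeks. Of the 25 genes that DESeq2 called lower, 7 were at 0 in at least 1 library at 12 weeks. Zfp850, a zinc finger gene of a large family, stood at 17.6, 17.2 and 13.4 CPM at 7 weeks and 3.10, 1.92 and 3.40 CPM at 12 weeks with a log2 difference of -2.50 ± 0.61, against 0.79 ± 0.57 after saline. After saline 14 of the 15 lower genes also had a negative difference, as 49% of all genes did, the exception being Zfp850, and 10 did not overlap, against 7.83% of all genes. The difference between treatments had an unadjusted p under 0.05 for 5 of these 15, against 4.49% of all genes, and none passed edgeR's adjusted p. As with the 15 higher genes, they were chosen by their synuclein difference, so that share is not a like-for-like background.

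Sult1a1, a sulfotransferase of phenolic compounds, stood at 71.4, 208 and 62.6 CPM at 7 weeks and 32.4, 16.5 and 47.9 CPM at 12 weeks, a log2 difference of -1.82 ± 0.43. It belongs to a list of glucocorticoid target genes, of which 15 of 18 were lower (background 54.2%), with a median of -0.43 and 3 without overlap (background 7.13%). The others without overlap were Tsc22d3 and Per1. Tsc22d3, the glucocorticoid-induced leucine zipper, stood at 489, 793 and 357 CPM at 7 weeks and 233, 63.3 and 249.9 CPM at 12 weeks (-1.59 ± 0.42, DESeq2 adjusted p = 0.0495). Per1, a clock gene that glucocorticoids also induce, stood at 41.9, 76.4 and 39.997 CPM at 7 weeks and 12.1, 12.1 and 26.4 CPM at 12 weeks (-1.65 ± 0.49). All 3 were highest in 7 week replicate 2. Without that replicate the median was -0.17, with 11 of 18 lower, and Sult1a1 differed by -1.03. The saline median was -0.82, and the groups of Sult1a1 and Tsc22d3 did not overlap after saline either, with differences of -1.41 ± 0.42 and -1.20 ± 0.41.

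Lists of microglial and macrophage genes had negative medians after synuclein and positive ones after saline, and no difference between treatments passed edgeR's adjustment. Of 21 microglial activation genes 15 were lower, with a median of -0.55 after synuclein and 0.31 after saline. Their summed level went the other way, at 7073, 6896 and 8803 CPM at 7 weeks and 11631, 11478 and 10354 CPM at 12 weeks, higher without overlap. A large part of that sum was the ferritin gene Fth1, at 3655, 3631 and 3945 CPM at 7 weeks and 7655, 7374 and 5836 CPM at 12 weeks. Of 19 homeostatic microglial genes 17 were lower (background 54.2%), with a median of -1.27 after synuclein and 0.21 after saline. P2ry13, a purine receptor, was the 1 that was lower without overlap, a share below the 7.13% of all genes. It stood at 4.05, 4.01 and 2.86 CPM at 7 weeks and 0, 0.274 and 0.283 CPM at 12 weeks. All tested genes at 5 CPM or less, to which it belongs, had a median of -0.35. Sall1, a transcription factor, was the 1 that was higher without overlap (background 5.13%), at 8.10, 13.7 and 2.57 CPM at 7 weeks and 22.3, 35.4 and 17.002 CPM at 12 weeks. The summed level of the list was 1689, 2191 and 2217 CPM at 7 weeks and 1111, 2090.0 and 2091 CPM at 12 weeks, most of it Sparc, which vessel cells also make, and 13 of the 19 genes were highest in 7 week replicate 3. P2ry12 and Tmem119 were each at 0 in 12 week replicates 1 and 2. C1qb, a chain of the complement initiator C1q, stood at 38.2, 37.2 and 142 CPM at 7 weeks and 5.92, 14.3 and 23.5 CPM at 12 weeks. The phagocyte adaptor Tyrobp stood at 22.3, 6.58 and 61.4 CPM at 7 weeks and 5.08, 1.37 and 12.2 CPM at 12 weeks. Csf1r, the receptor that keeps microglia alive, stood at 41.1, 15.7 and 67.4 CPM at 7 weeks and 17.2, 4.11 and 18.1 CPM at 12 weeks; it shares its locus with another model. All 3 were highest in 7 week replicate 3, the library with smooth muscle RNA, and without that library the homeostatic median was -0.49 with 16 of 20 genes lower and 1 at an unadjusted p under 0.05. C1qb lay without overlap, with a difference of -2.31 ± 0.62 that was -1.33 without that library.

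Macrophage and class II antigen presentation genes were lower for 11 of 15 (background 54.2%), 6 of them without overlap (background 7.13%). Their median was -1.29 after synuclein and 0.22 after saline. Ciita, the master activator of class II genes, stood at 26.03, 18.03 and 30.9 CPM at 7 weeks and 14.1, 3.02 and 7.37 CPM at 12 weeks, a log2 difference of -1.61 ± 0.54, against 0.63 ± 0.53 after saline. H2-Ab1, a class II chain, stood at 119, 52.7 and 67.4 CPM at 7 weeks and 13.5, 32.4 and 51.9 CPM at 12 weeks (-1.29 ± 0.50). Its partner H2-Aa stood at 52.9, 28.05 and 28.6 CPM at 7 weeks and 6.49, 13.4 and 25.8 CPM at 12 weeks (-1.26 ± 0.59). For the class II chains 7 week replicate 1 was highest and 12 week replicate 3 lay just below the 7 week range. Without 12 week replicate 1, H2-Ab1 differed by -0.86 and H2-Aa by -0.83. Without 7 week replicate 1 the median was -0.87, and 2 genes, in place of 6 (background 4.28%), had an unadjusted p under 0.05. The macrophage markers Mrc1, Cd163 and Pf4 were all under 8 CPM in the 6 libraries, Pf4 at 5.21, 4.01 and 6.29 CPM at 7 weeks and 5.08, 7.68 and 6.80 CPM at 12 weeks, overlapping.

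Astrocyte genes did not share a direction: 13 of 25 were higher and 12 lower, with a median of 0.11 that ranged from -0.056 to 0.41 with each library left out. Their summed level was 2019.8, 2262 and 2639.5 CPM at 7 weeks and 3304, 2974 and 2989 CPM at 12 weeks, higher without overlap. The glutamine synthetase Glul, whose locus another model shares, was the largest part of it, at 768, 1079 and 923 CPM at 7 weeks and 1515, 1644 and 1304 CPM at 12 weeks. Gfap, the astrocyte filament protein, stood at 14.2, 3.15 and 18.6 CPM at 7 weeks and 31.03, 24.1 and 26.1 CPM at 12 weeks, higher without overlap (1.18 ± 0.58, and 0.74 without 7 week replicate 2), against -0.87 ± 0.59 after saline. Gja1, the gap junction protein connexin 43, stood at 46.6, 89.6 and 74.9 CPM at 7 weeks and 41.7, 13.4 and 39.1 CPM at 12 weeks, lower without overlap (-1.16 ± 0.38, and -0.77 without 12 week replicate 2). S100b and Ndrg2, which oligodendrocytes also express, were higher without overlap, by 0.82 ± 0.30 and 0.96 ± 0.32. C4b, a complement component, stood at 13.3, 28.9 and 13.4 CPM at 7 weeks and 42.03, 30.7 and 54.4 CPM at 12 weeks, higher without overlap (1.19 ± 0.42), with a saline difference of 1.67 ± 0.43; a near-identical copy could share its reads.

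Chaperone lists had positive medians after synuclein and negative ones after saline. Of 31 cytosolic and mitochondrial heat shock genes, 24 were higher, with medians of 0.28 after synuclein and -0.38 after saline; 5 had an unadjusted p under 0.05 (background 3.31%) and 3 did not overlap (Cryab, Hspa9 and Fkbp4; background 5.13%). Hspa1a, an inducible HSP70, stood at 6.65, 4.58 and 6.29 CPM at 7 weeks and 122, 5.21 and 8.78 CPM at 12 weeks. Its near-identical copy Hspa1b, with which it may share reads, stood at 10.4, 13.5 and 6.57 CPM at 7 weeks and 137, 0.548 and 8.22 CPM at 12 weeks. Both were high in 12 week replicate 1 alone. Hsp90aa1, the inducible HSP90, stood at 617, 364 and 345 CPM at 7 weeks and 1207, 563 and 567 CPM at 12 weeks (0.82 ± 0.33), also highest in that library. Without 12 week replicate 1, 16 of the 31 were higher, the median was 0.104 and Hspa1a differed by 0.32 in place of 2.95, and Hsp90aa1 by 0.42. Without both 12 week libraries that stand apart the median was -0.064, with 14 higher, 17 lower and 0 at an unadjusted p under 0.05. Hspa9, the mitochondrial HSP70, was higher without overlap at 131, 129 and 122 CPM at 7 weeks and 195, 269 and 144 CPM at 12 weeks (0.67 ± 0.24, and 0.45 without 12 week replicate 2). For 10 of the 31 genes the difference between treatments had an unadjusted p under 0.05, against 4.49% of all genes, and none passed edgeR's adjusted p. The summed level of the list was 13652, 8842 and 6807 CPM at 12 weeks after synuclein, highest in replicate 1. At 7 weeks after saline it was 7801, 10413 and 7802 CPM, highest in replicate 2. The part of these libraries in that share was not tested.

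Chaperones of the endoplasmic reticulum (ER) were higher as a sum. The summed level of 31 genes of ER folding and the unfolded protein response was 2972, 3093 and 2839 CPM at 7 weeks and 3930.0, 3624 and 3495 CPM at 12 weeks, without overlap, while 20 of the 31 were higher and the median was 0.24, or 0.19 without 12 week replicate 1. Ddit3, a stress transcription factor whose locus another model shares, was the other gene higher without overlap beside Calr and Canx, and Trib3, its target, was lower without overlap. Hspa5, the ER HSP70 BiP, stood at 302, 253 and 260.0 CPM at 7 weeks and 766, 289.6 and 350.2 CPM at 12 weeks, overlapping (0.79 ± 0.29, and 0.30 without 12 week replicate 1). Calr, the lectin chaperone calreticulin, stood at 159, 179 and 178 CPM at 7 weeks and 193, 341 and 249 CPM at 12 weeks (0.60 ± 0.27, and 0.40 without 12 week replicate 2). Canx, its membrane-bound partner calnexin, stood at 344, 322 and 305 CPM at 7 weeks and 516, 389 and 506 CPM at 12 weeks (0.54 ± 0.23). Calr and Canx were higher in each library at 12 weeks than in any at 7 weeks. After saline these 3 differed by -0.57 ± 0.29, -0.21 ± 0.27 and -0.06 ± 0.23.

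The unfolded protein response acts through the ER stress element, and the promoters of the 3 chaperones are shown because they carry it. The sequences are from RefSeq (GRCm38.p6), 250 bases before to 50 after the start site, 5′ to 3′ on the strand of the gene, with the match in capitals. The motif searched, on both strands, was CCAAT followed by 9 bases of any kind and CCACG. Hspa5 lies on the plus strand at chr2:34771840-34772139, Calr on the minus strand at chr8:84846882-84847181 and Canx on the minus strand at chr11:50325624-50325923.
Hspa5: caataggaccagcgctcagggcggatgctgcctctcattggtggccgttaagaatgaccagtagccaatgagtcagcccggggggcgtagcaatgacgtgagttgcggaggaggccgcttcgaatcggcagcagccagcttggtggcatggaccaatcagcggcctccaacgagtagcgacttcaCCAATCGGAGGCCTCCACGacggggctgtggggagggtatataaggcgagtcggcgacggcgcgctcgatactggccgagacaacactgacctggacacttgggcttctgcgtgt
Calr: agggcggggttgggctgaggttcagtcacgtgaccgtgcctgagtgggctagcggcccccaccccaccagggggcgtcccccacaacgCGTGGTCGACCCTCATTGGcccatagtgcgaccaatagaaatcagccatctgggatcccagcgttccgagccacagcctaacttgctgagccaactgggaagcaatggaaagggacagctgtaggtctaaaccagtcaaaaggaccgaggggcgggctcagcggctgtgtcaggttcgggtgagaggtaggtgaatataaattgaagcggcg
Canx: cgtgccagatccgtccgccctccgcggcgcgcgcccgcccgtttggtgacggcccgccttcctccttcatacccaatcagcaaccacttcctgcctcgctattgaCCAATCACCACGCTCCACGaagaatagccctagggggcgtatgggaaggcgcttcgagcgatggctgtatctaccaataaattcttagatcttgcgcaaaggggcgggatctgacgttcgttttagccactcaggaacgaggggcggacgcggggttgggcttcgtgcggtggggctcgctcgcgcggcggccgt
The match lies on the strand of the gene in Hspa5 and Canx and on the opposite strand in Calr. Of the 28 genes of the ER list with a RefSeq promoter, 9 hold the motif (Calr, Canx, Creld2, Derl3, Dnajc3, Hsp90b1, Hspa5, Pdia6 and Syvn1), against 39 of 32851 promoters, 0.119%. The log2 differences of these 9 ran from 0.05 ± 0.39 for Syvn1 to 3.03 ± 1.35 for Derl3, the latter set by 12 week replicate 2 at 3.76, 0.572 and 0.286 CPM at 7 weeks and 4.51, 32.6 and 1.13 CPM at 12 weeks. The match is a description of the sequence and not of binding.

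Heat shock factor binds inverted repeats of GAA, and Hsph1, an HSP110 that releases nucleotides from HSP70, carries one. It stood at 122, 64.1 and 29.4 CPM at 7 weeks and 238, 74.04 and 44.8 CPM at 12 weeks (0.73 ± 0.50), highest in 12 week replicate 1. The motif searched, on both strands, was GAA, TTC and GAA with 2 bases of any kind between each, and the promoter (RefSeq, GRCm38.p6, minus strand, chr5:149636266-149636565) is given with the match, which lies on the opposite strand, in capitals.
Hsph1: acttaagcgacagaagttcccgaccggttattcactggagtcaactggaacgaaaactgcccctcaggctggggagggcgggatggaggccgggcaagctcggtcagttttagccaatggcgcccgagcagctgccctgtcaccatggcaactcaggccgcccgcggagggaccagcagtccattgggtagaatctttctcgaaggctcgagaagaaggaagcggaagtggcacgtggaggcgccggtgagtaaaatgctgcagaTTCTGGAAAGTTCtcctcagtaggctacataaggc
Of 25 heat shock genes with a RefSeq promoter, 5 hold this motif (Chordc1, Dnajb6, Hspd1, Hspe1 and Hsph1), taken over 34 promoters of these genes, while 0.603% of all 32851 promoters hold it. Hspd1 and Hspe1, the mitochondrial chaperonin pair, differed by 0.08 ± 0.28 and 0.02 ± 0.36, and Dnajb6 by -0.17 ± 0.21, with overlapping groups.

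Immediate early genes, which cells transcribe within minutes of a stimulus, split. Of 28, 13 were higher and 15 lower, with a median of -0.29, which was 0.136 without 7 week replicate 2. Ier2 stood at 73.2, 90.2 and 66.3 CPM at 7 weeks and 99.3, 179 and 128 CPM at 12 weeks, higher without overlap (0.82 ± 0.26), while after saline it stood at 118, 132 and 162 CPM at 7 weeks and 68.4, 76.7 and 90.2 CPM at 12 weeks, lower without overlap (-0.81 ± 0.26). Its difference between treatments was 1.63 ± 0.37, with an edgeR adjusted p of 0.952. Fosl2, a partner of Jun, showed the same pattern with 0.83 ± 0.43 and -0.73 ± 0.43. Arc, a regulator of synapses, was higher without overlap at 21.4, 15.7 and 12.3 CPM at 7 weeks and 37.5, 43.1 and 23.2 CPM at 12 weeks (1.07 ± 0.38). Fos, the partner of Jun in AP-1, was lower without overlap at 26.6, 34.3 and 45.1 CPM at 7 weeks and 20.9, 2.19 and 5.10 CPM at 12 weeks (-1.91 ± 0.69).

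The 30 endothelial genes had a median of -0.07, against -0.57 after saline, and 0 were without overlap. Ly6c1, a capillary surface protein with near-identical copies, stood at 3031, 5418 and 3899 CPM at 7 weeks and 2276, 3290.3 and 4351 CPM at 12 weeks. All 18 ependymal genes had a positive difference, median 1.85, but their summed level was 85.04, 66.4 and 115 CPM at 7 weeks and 881, 47.99 and 87.6 CPM at 12 weeks, and without 12 week replicate 1 the median was -0.39 with 13 of 18 lower. After saline all 18 were also higher, with a median of 2.15. Their saline sum was 55.2, 77.01 and 43.05 CPM at 7 weeks and 138, 493 and 98.5 CPM at 12 weeks, without overlap. After synuclein Tmem212, an ependymal marker, stood at 2.31, 0 and 2.86 CPM at 7 weeks and 106, 0 and 0.85 CPM at 12 weeks. Replicate 1 at 12 weeks after synuclein is also the library with high Hspa1a. Pericyte and smooth muscle genes had a median of -0.11, and 0.94 without 7 week replicate 3, in which Acta2, smooth muscle actin, stood at 469 CPM against 3.18 to 76.5 in the other 5. Fibroblast and collagen genes summed to 1925, 2161 and 2698 CPM at 7 weeks and 5636, 3557 and 3156 CPM at 12 weeks and choroid plexus genes to 1032, 896 and 1052 CPM at 7 weeks and 2172, 1913 and 1307 CPM at 12 weeks, both higher without overlap. Most of the first sum was Ptgds and most of the other Enpp2, while the list medians were 0.34, with 14 of 21 higher, and -0.27, with 5 of 11 higher; without 12 week replicate 1 they were -0.10 and -0.77.

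**Figure D4:**
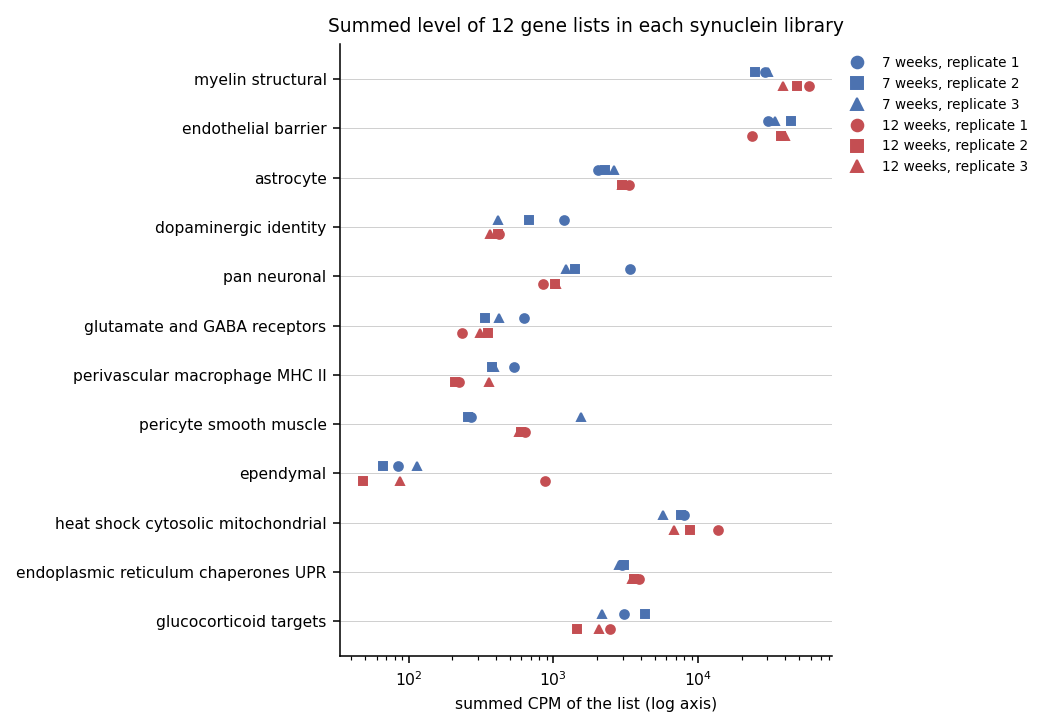
Summed CPM (horizontal log axis) of 12 gene lists (rows) in each library at 7 weeks (blue) and at 12 weeks (red) after synuclein; circles, squares and triangles are replicates 1, 2 and 3. Myelin and ER chaperone sums lie higher at 12 weeks without overlap and pan-neuronal and macrophage sums lower, while the ependymal sum of 881 CPM is that of 12 week replicate 1 and the smooth muscle sum of 1551 CPM that of 7 week replicate 3.

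No gene's time difference was shown to differ between synuclein and saline. In this test 0 genes passed an adjusted p of 0.05 in edgeR, DESeq2 or limma-voom, the smallest edgeR adjusted p was 0.952, and 780 genes (4.49%) had an unadjusted p under 0.05. The difference was above 0 for 47.4% of all genes and for 30 of the 30 endothelial genes, 0 of which had an unadjusted p under 0.05. Other lists shared this, with 53 of 58 respiratory chain, 56 of 65 ribosomal and 24 of 31 proteasome genes above 0. Myelin had 8 of 27 above 0 and homeostatic microglia 2 of 19. At 7 weeks after saline the endothelial sum was 30499, 43748 and 55607 CPM, highest in replicate 3. The part of that library was not tested. Both treatments had non-overlapping times in the same direction for 278 genes (1.6%), 151 higher and 127 lower, and in opposite directions for 119 genes (0.685%). For the members described above, the differences between treatments were -0.29 ± 0.33 for Mbp, -0.25 ± 0.54 for Th, -0.96 ± 0.53 for Cck and 0.18 ± 0.32 for Fth1, each within 2 standard errors of 0. For Grm5, Ciita and Hspa5 they were -2.47 ± 0.66, -2.24 ± 0.76 and 1.35 ± 0.41, each over 2 standard errors from 0. Without synuclein 12 week replicate 1, the time difference of Hspa5 after synuclein was 0.30 in place of 0.79.

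**Figure D5:**
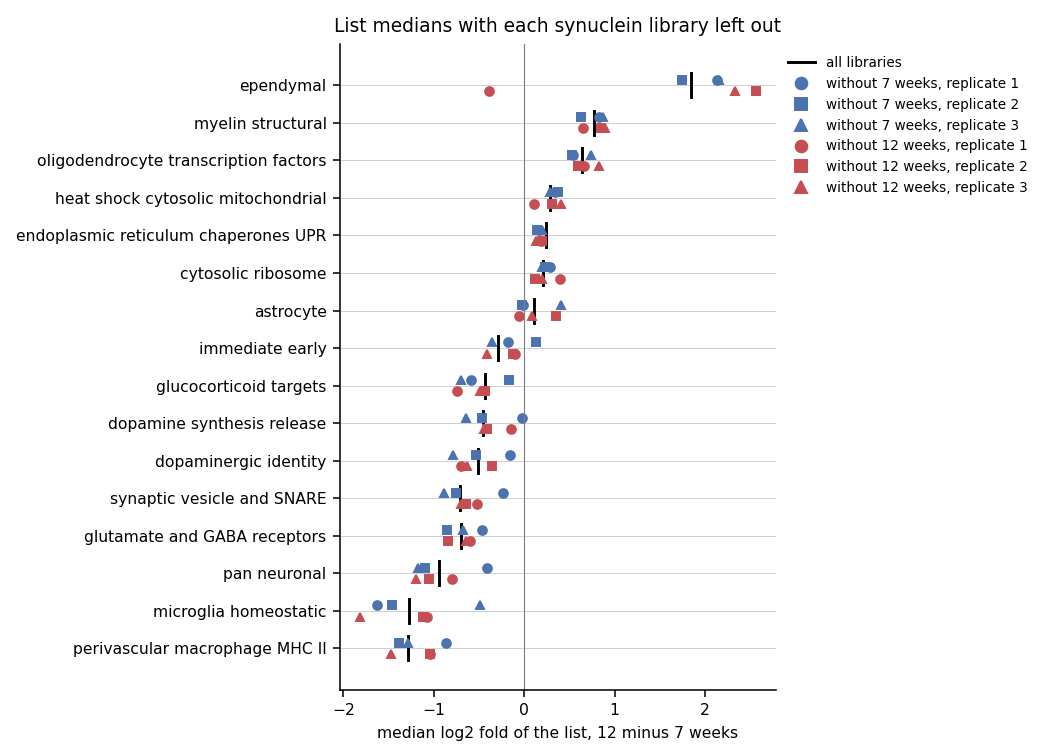
Median log2 difference between 12 and 7 weeks for 16 gene lists (rows) with all libraries (black line) and with each synuclein library left out in turn (blue for 7 weeks, red for 12 weeks; circles, squares and triangles for replicates 1, 2 and 3). The ependymal median goes from 1.85 to -0.39 without 12 week replicate 1, pan-neuronal from -0.95 to -0.41 without 7 week replicate 1 and homeostatic microglia from -1.27 to -0.49 without 7 week replicate 3, while myelin stays between 0.63 and 0.90.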

How the data were processed

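RNA of hKO1-positive midbrain cells was measured in 12 libraries. The submitters' processing notes name TopHat2 2.0.13, Bowtie2 2.2.3 and Cufflinks 2.2.1. No source used here names a genome build. The authors deposited estimated counts and FPKM for 24346 genes. The counts were scaled per library: 98.8% to 98.99% of positive values up to 1000 were whole multiples, within 0.02 fragments, of 1 step per library, and dividing by it gave the assigned fragments. Another 60 columns of the tables were not used. The table holds no mitochondrially encoded genes, and 5567 genes share a locus with another.

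Estimated counts were rounded and tested with edgeR 4.0.16 (TMM, filterByExpr, quasi-likelihood, 1 mean per group over all 4 groups, Benjamini-Hochberg, threshold 0.05) in R 4.3.3, tested on simulated data first. Alternatives used DESeq2 1.42.0, limma 3.58.1 (voom, or log2(FPKM + 0.1) and log2(FPKM + 1)), other scalings and filters, and left-out libraries. Gene names are those of the files; coordinates are 1-based. Named genes were the 15 per direction with the smallest p among genes without overlap and of at least 5 CPM, up to 4 members per list (44 lists), cell type markers and dopamine genes, with further list members named for their roles. The members and lists were chosen with earlier results of these data known.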

Additional observations from a re-analysis of the deposited data

Results flagged for a closer look

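In 7 genes named by rule every library at 12 weeks lay above every library at 7 weeks after one treatment and below after the other; 119 of all genes tested (0.685%) did so, Fosl2 among them. The naming rule favoured genes without overlap after synuclein, so the 7 cannot be set against the share of all genes. The difference between treatments (synuclein minus saline, log2, edgeR) had an adjusted p of 0.952 in each of the 7. It was 1.63 ± 0.37 for the immediate early gene Ier2. It was -4.27 ± 1.29 for Islr, a secreted protein of fibroblasts, at 12.1, 7.15 and 11.4 CPM at 7 weeks and 0, 0.823 and 4.25 CPM at 12 weeks after synuclein. For the proteasome subunit Psma1 it was 0.9996 ± 0.33, and for the class II activator Ciita -2.24 ± 0.76. For the prolactin receptor Prlr it was -1.98 ± 0.69, and for the autophagy gene Atg9a -0.79 ± 0.33. For the ribosomal protein gene Rpl7, whose processed copies could share reads, it was 0.42 ± 0.28.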

How the results depend on the processing

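The count of genes past an adjusted p of 0.05 between 12 and 7 weeks was 0 under every alternative except DESeq2 (44) and leaving out 12 week replicate 3 (2, Nap1l2 and Zfp1, chosen here after their values were seen); over the left-out libraries it ranged from 0 to 2. For the difference between treatments it was 0 except with limma on log2(FPKM + 0.1) (1, Rpl26) and on log2(FPKM + 1) (1, Olfr76), and 0 over all left-out libraries. At an unadjusted p, the 743 lower genes became 482 without 7 week replicate 1, 1414 without 12 week replicate 3, 339 with only the 6 synuclein libraries fitted and 1140 with limma-voom, and the 575 higher genes became 182 without both 12 week libraries that stand apart. The 780 genes for the difference between treatments became 1653 without 12 week replicate 1, 1321 without 12 week replicate 3 and 1191 with limma-voom.

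Of 105 named genes followed over 18 alternatives, 35 passed an adjusted p of 0.05, all in DESeq2, and 2 changed sign. With each library left out in turn, the log2 difference ranged from -5.69 to 0.72 for Tph2, highest without 7 week replicate 1, and from -1.16 (without 12 week replicate 1) to 2.86 for Hspa1b. For Hspa1b it was also -0.12 with limma-voom and -0.30 without both 12 week libraries that stand apart. Whether the replicate numbers pair the samples was not settled. Deviations of same-numbered libraries at 7 and 12 weeks correlated at -0.02, 0.06 and 0.02 after synuclein and at 0.09, 0.04 and 0.07 after saline. Libraries of unlike number correlated at -0.098 to 0.095 after synuclein and at -0.064 to 0.006 after saline. Deviations from the mean of only 3 libraries cannot decide it. With the replicate block, 0 genes passed the adjusted p for either comparison, and 603 higher and 818 lower genes had an unadjusted p under 0.05. With DESeq2's size factors in edgeR, 667 genes were higher and 698 lower at an unadjusted p under 0.05, and with upper-quartile scaling 478 and 820. Depth and 3 libraries per group limit genes of low level: the standard error of the median gene was 0.53, and 3652 tested genes had a mean of 5 CPM or less.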

Other observations

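Of 65 cytosolic ribosomal protein genes, 57 were higher at 12 weeks after synuclein, with a median of 0.20 that was 0.12 without 12 week replicate 2 and 0.39 without 12 week replicate 1; the saline median was -0.12. Of these, 3 had an unadjusted p under 0.05 (background 3.31%), 9 were higher without overlap (background 5.13%), and 51 were highest in 12 week replicate 2. The 31 proteasome genes had a median of 0.05, and the 58 nuclear genes of the respiratory chain a median of 0.01, with 29 higher and 29 lower. Lysosomal genes (39) had a median of 0.05 and autophagy genes (30) one of -0.06.

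Interferon-stimulated genes (32) had a median of -0.14 after synuclein and -0.45 after saline, with 0 at an unadjusted p under 0.05 after synuclein. The difference between treatments was above 0 for 28 of the 32 interferon-stimulated genes, against 47.4% of all genes. It was also above 0 for 53 of the 58 respiratory chain genes and 56 of the 65 ribosomal genes, so this share was not particular to the interferon list. For 5 of the 32 it had an unadjusted p below 0.05, against 4.49% of all genes, and 0 were past edgeR's adjusted p. Over the 30 endothelial genes its median was 0.51. These genes come from the same 12 libraries and are not independent of each other.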
